A study of Mus musculus with 31 samples.

Results

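The genes described here carry fat into the milk-secreting cell and carry the finished droplet out of it. They are 10 named genes of the 55379 in the count tables, chosen by what their proteins do and matched by gene symbol: Xdh, Btn1a1, Plin2, Plin3, Cidea, Mfge8, Muc1, Cd36, Fabp3 and Vldlr. All 10 passed the filter on low counts that 14362 genes passed. Messenger RNA was sequenced from the mammary glands of 31 C57BL/6 (C57BL/6J in the study's methods) mouse dams at lactation day 10, one library per dam. The study asked how the antidepressant fluoxetine, a blocker of serotonin reuptake, and added dietary folic acid (FA) change the transcripts of the lactating gland. Dams ate breeder diet with 4 mg/kg folic acid or FA diet with 24 mg/kg from before mating, and received intraperitoneal saline or 20 mg/kg fluoxetine each day from embryonic day 13. By the sample labels there were 8 dams on breeder diet + saline, 7 on breeder diet + fluoxetine, 8 on FA diet + saline and 8 on FA diet + fluoxetine.

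Milk fat is assembled as droplets at the endoplasmic reticulum of the alveolar cell and leaves the cell in an unusual way. The apical plasma membrane wraps around each droplet, and the wrapped droplet pinches off as a milk fat globule that carries the cell's own membrane as its coat. Fatty acids for the droplets are made in the cell or taken up from the blood through membrane transporters, lipoprotein receptors and intracellular binding proteins.

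By what they encode, the 10 genes fall into 4 roles. Xdh, Btn1a1 and Plin2 encode the proteins of the envelopment step, namely xanthine dehydrogenase, the transmembrane protein butyrophilin and the droplet coat protein perilipin 2. Plin3 encodes another droplet coat protein, and Cidea a protein that promotes droplet fusion. Mfge8 and Muc1 encode the globule membrane glycoproteins lactadherin and mucin 1. Cd36, Fabp3 and Vldlr encode a fatty acid transporter of the plasma membrane, a cytosolic fatty acid binding protein and a receptor for triglyceride-rich lipoproteins. On the GRCm39 build, Xdh lies on chr17:74190203-74257399, Btn1a1 on chr13:23641162-23650071, Plin2 on chr4:86565912-86588459 and Plin3 on chr17:56584218-56599873. Mfge8 lies on chr7:78783515-78798825, Muc1 on chr3:89136354-89140688, Cd36 on chr5:17986432-18094067, Fabp3 on chr4:130202388-130209259 and Vldlr on chr19:27193862-27231631.

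RefSeq promoter windows, taken from its GRCm38.p6 table and placed on GRCm39 by exact match, were at hand for 7 of the 10 genes, all but Xdh, Btn1a1 and Cidea. The 250 bases before each start were searched on both strands for AGGTCA, the six-base element that nuclear receptors bind, and for TTCNNNGAA, the element bound by STAT5, the factor downstream of prolactin. AGGTCA or its reverse complement TGACCT was present for Plin2 and Cd36, with its first base 218 and 228 bases before the RefSeq start, and for none of the other 5. Of all 32851 windows searched, 14.0% held it. TTCNNNGAA was in none of the 7 genes' windows and in 7.02% of all windows, and no match overlapped another. The stretches that hold the element are shown because Plin2 and Cd36 are a pair of genes whose transcripts varied together across dams, as described further on. They are printed 5′ to 3′ on the minus strand, with the element in capitals, and are cut to the bases that no annotated exon covers, chr4:86588460-86588546 for Plin2 and chr5:18041076-18041144 for Cd36. The Cd36 stretch lies inside the gene span given above. Mfge8, which varied with both genes, had no such element in its window. Whether the element has any part in how these transcripts varied was not tested.
Plin2: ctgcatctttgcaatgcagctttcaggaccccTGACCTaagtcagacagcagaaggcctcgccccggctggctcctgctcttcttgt
Cd36: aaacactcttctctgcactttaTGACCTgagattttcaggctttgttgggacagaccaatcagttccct

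The libraries held 15412542 to 36000439 counts each (median 22299952), and the 20 most abundant genes took 39.3% to 81.0% of them. All 6 listed secretory markers (Csn2, Csn3, Csn1s1, Wap, Lalba and Elf5) were expressed, which fits the label of a lactating gland. Levels are given as CPM, the counts of a gene in each 1000000 of the library, on totals scaled by edgeR's TMM factors, which were 0.716 to 1.57 in 30 libraries and 3.04 in the library of FA diet + fluoxetine dam 3. That library and the one of breeder diet + fluoxetine dam 13 had the lowest shares of counts in the top 20 genes (39.3% and 60.5%), so results are given with and without them where they matter.

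Among themselves the 10 genes spanned a range of levels from among the most abundant transcripts of the gland to below the middle of those measured. Levels per length, as mean CPM per kilobase of annotated exon over the 31 libraries, placed Fabp3 at 870, rank 22 of 14326 genes. Cidea followed at 719 (rank 25) and Mfge8 at 651 (rank 26). The envelopment genes and Muc1 formed the next tier, with Btn1a1 at 217 CPM per kilobase, Muc1 at 150, Plin2 at 109 and Xdh at 93.6. Cd36 stood at 33.9 (rank 290), Plin3 at 3.23 (rank 2822) and Vldlr at 0.704 (rank 8041). Part of this order depends on the division by exon length. In mean CPM without it, Xdh stood at 1205, Btn1a1 at 895, Plin2 at 840, Cd36 at 428 and Muc1 at 354. Mfge8, at 3098, was then above Cidea, at 1608. Thus the abundant coat protein gene of these droplets was Plin2 and not its relative Plin3, by 31 of 31 libraries, and Vldlr was the scarcest of the uptake genes. Of the neighbours in this order, Fabp3 was above Cidea in 26 of 31 libraries, Cidea above Mfge8 in 23, Btn1a1 above Muc1 in 27, Muc1 above Plin2 in 29 and Plin2 above Xdh in 21. The higher gene led in 31 of 31 libraries for Mfge8 over Btn1a1, Xdh over Cd36, Cd36 over Plin3 and Plin3 over Vldlr, but the ranges over all libraries were separate only for the last pair of steps, from Cd36 to Plin3 and from Plin3 to Vldlr. For Mfge8 and Xdh the low end of that range was the library of FA diet + fluoxetine dam 3.

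Some counts of Xdh, Cidea and Fabp3 are uncertain. The near-identical pseudogene Fabp3-ps1 can share reads with Fabp3, the processed pseudogene Gm18068 lies within Xdh on the same strand, and Zcchc17 and 2 long noncoding genes overlap Fabp3 and Cidea on the opposite strand, while the strand setting of the counting is not given in the sources used here. Against 833097 counts of Xdh over all libraries, Gm18068 held 5821.

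In the envelopment group, no gene differed between fluoxetine and saline dams by the test. Xdh read 816 to 1976 CPM with a median of 1344 on breeder diet + saline, and 800 to 1436 with a median of 1204 on breeder diet + fluoxetine. On FA diet it read 919 to 1549 (median 1136) with saline and 246 to 1696 (median 1129) with fluoxetine. The 4 groups overlapped over most of their range, and the only dam far below the rest was dam 3 of FA diet + fluoxetine. The log2 fold change of Xdh for fluoxetine, averaged over the diets, was -0.16 (SE 0.168, edgeR quasi-likelihood test with Benjamini-Hochberg adjustment, adjusted p = 0.785).

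Btn1a1 read 613 to 1247 CPM (median 1063) on breeder diet + saline and 504 to 1326 (median 835) on breeder diet + fluoxetine. On FA diet its values were 642 to 1302 (median 769) with saline and 155 to 1327 (median 801) with fluoxetine. Its highest libraries lay in both saline and fluoxetine groups, and the log2 fold change for fluoxetine was -0.13 (SE 0.188, adjusted p = 0.850 in the same edgeR fit). Plin2 varied least of the envelopment genes. It read 732 to 1053 CPM (median 827) on breeder diet + saline, 639 to 1152 (median 861) on breeder diet + fluoxetine, 604 to 1060 (median 769) on FA diet + saline and 322 to 1230 (median 822) on FA diet + fluoxetine. Its log2 fold change for fluoxetine of 0.050 (SE 0.130, adjusted p = 0.933 by edgeR) was the only one of the 10 above 0.

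**Figure D1:**
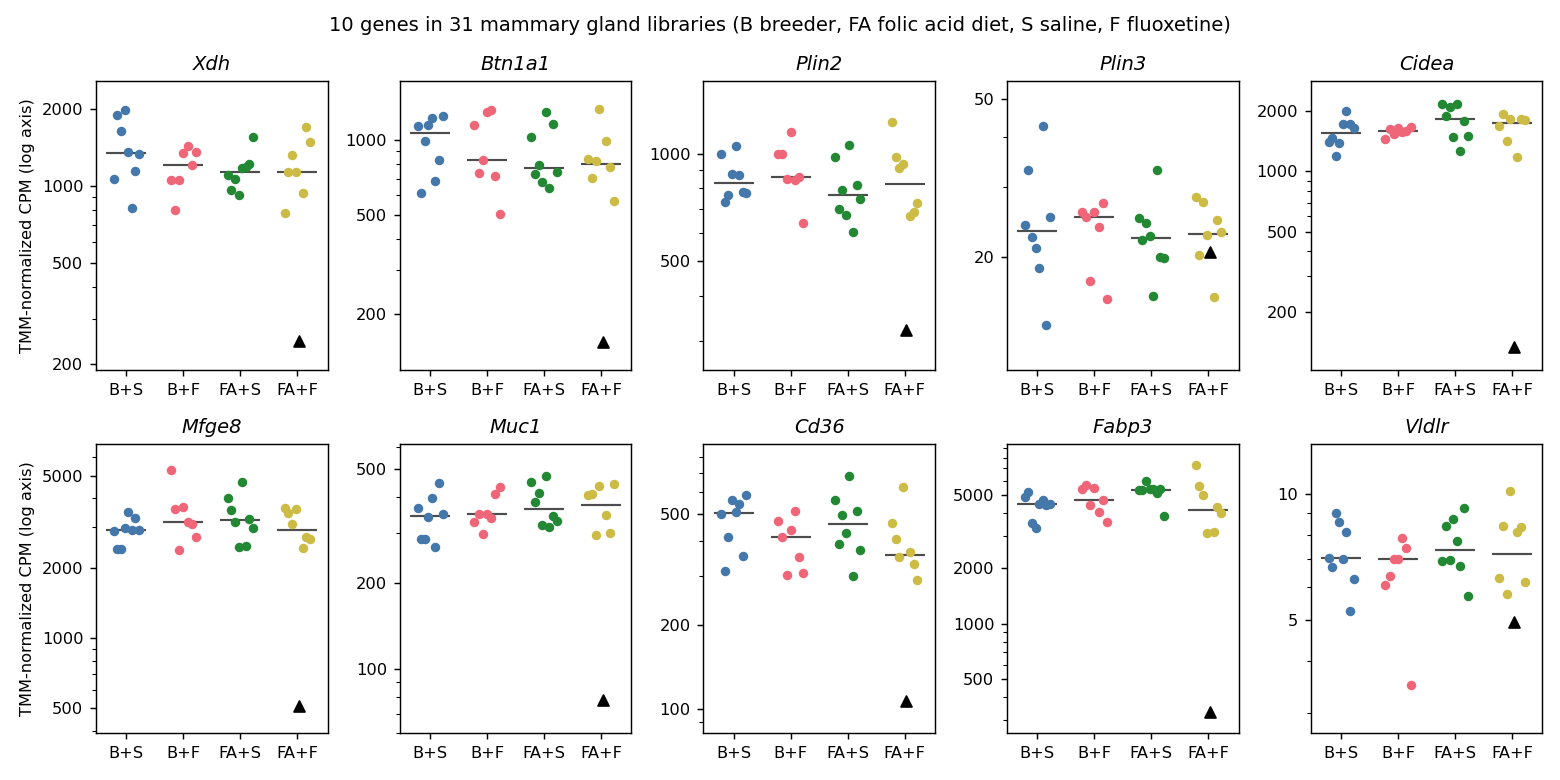
Each point is the TMM-normalized CPM (log axis) of one gene in one dam, in the 4 diet and drug groups, with a bar at the group median. The black triangle is dam 3 of FA diet + fluoxetine, which lies below every other dam for 8 of the 10 genes and among them for Plin3 and Vldlr.

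For the droplet coat and fusion genes the groups overlapped as well. Plin3 read 13.6 to 42.6 CPM (median 23.3) on breeder diet + saline, 15.7 to 27.3 (median 25.2) on breeder diet + fluoxetine, 16.0 to 33.2 (median 22.4) on FA diet + saline and 16.0 to 28.3 (median 23.0) on FA diet + fluoxetine. The highest value, 42.6 CPM, was in breeder diet + saline dam 3 and the lowest, 13.6, in dam 4 of that same group. Cidea, on chr18:67476317-67501224, was even outside dam 3, at 1200 to 2004 CPM (median 1563) on breeder diet + saline and 1449 to 1675 (median 1600) on breeder diet + fluoxetine. On FA diet it read 1271 to 2171 (median 1830) with saline and 133 to 1924 (median 1746) with fluoxetine. The log2 fold changes for fluoxetine were -0.060 for Plin3 (SE 0.125) and -0.13 for Cidea (SE 0.186), with adjusted p of 0.908 and 0.844 by edgeR.

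The globule membrane glycoproteins gave fold changes for fluoxetine closest to 0. Mfge8 read 2415 to 3508 CPM (median 2918) on breeder diet + saline, 2384 to 5285 (median 3151) on breeder diet + fluoxetine, 2468 to 4696 (median 3215) on FA diet + saline and 508 to 3621 (median 2925) on FA diet + fluoxetine. The fluoxetine groups held both its highest library, breeder diet + fluoxetine dam 13 at 5285 CPM, and its lowest. Muc1 read 268 to 448 CPM (median 344) on breeder diet + saline, 296 to 433 (median 349) on breeder diet + fluoxetine, 313 to 472 (median 363) on FA diet + saline and 77.9 to 443 (median 376) on FA diet + fluoxetine. The log2 fold changes for fluoxetine were -0.017 for Mfge8 (SE 0.168, adjusted p = 0.985) and -0.045 for Muc1 (SE 0.145, adjusted p = 0.949) by edgeR.

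Among the uptake genes, Cd36 stood lower under fluoxetine than the other members, without passing the test. It read 312 to 582 CPM (median 504) on breeder diet + saline and 301 to 514 (median 413) on breeder diet + fluoxetine. On FA diet it read 301 to 686 (median 461) with saline and 107 to 627 (median 357) with fluoxetine. Of the 15 fluoxetine dams, 3 were above the saline median of their own diet, although the ranges overlapped. The log2 fold change was -0.29 (SE 0.157, 95% interval -0.61 to 0.026, adjusted p = 0.539 by edgeR, and 0.289 to 0.743 over the alternative fits), a fold of 0.816. Without FA diet + fluoxetine dam 3 it was -0.23.

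Fabp3 read 3310 to 5222 CPM (median 4469) on breeder diet + saline, 3573 to 5673 (median 4696) on breeder diet + fluoxetine, 3837 to 5940 (median 5355) on FA diet + saline and 333 to 7311 (median 4169) on FA diet + fluoxetine. The last of these groups thus held both the lowest dam of the study, dam 3, and the highest, dam 1. Vldlr, the scarcest member, rested on 52 to 283 counts per library. It read 5.26 to 9.01 CPM (median 7.02) on breeder diet + saline, 3.50 to 7.88 (median 6.98) on breeder diet + fluoxetine, 5.72 to 9.28 (median 7.33) on FA diet + saline and 4.95 to 10.1 (median 7.21) on FA diet + fluoxetine. The log2 fold changes for fluoxetine were -0.11 for Fabp3 (SE 0.200, adjusted p = 0.887) and -0.11 for Vldlr (SE 0.113, adjusted p = 0.785) by edgeR.

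In sum over the fluoxetine comparison, 0 of the 10 genes were called at a false discovery rate of 10% by edgeR's quasi-likelihood test, where 0.0209% of all genes tested were called. Before adjustment, 0 of 10 had p at or below 0.05 in that edgeR fit, against 9.92% of all genes. The likelihood ratio test of edgeR and DESeq2 also called 0 of 10 and, before adjustment, put 0 and 1 at or below 0.05, the latter being Cd36 (unadjusted p = 0.0465 by DESeq2). Over all 14362 genes these tests called 58 and 70 and, before adjustment, put 1472 and 1559 at or below 0.05. The values of 9 of the 10 genes were below 0, with a median log2 fold change of -0.11, beside 46.5% below 0 and a median of 0.019 over all genes. Without FA diet + fluoxetine dam 3 this became 7 of 10 with a median of -0.058, beside 51.6% of all genes. The 95% intervals of the 10 genes lay between folds of 0.655, the lower end for Cd36, and 1.25, the upper end for Mfge8. In whole-gland RNA, fewer secretory cells and less RNA per cell cannot be told apart.

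**Figure D2:**
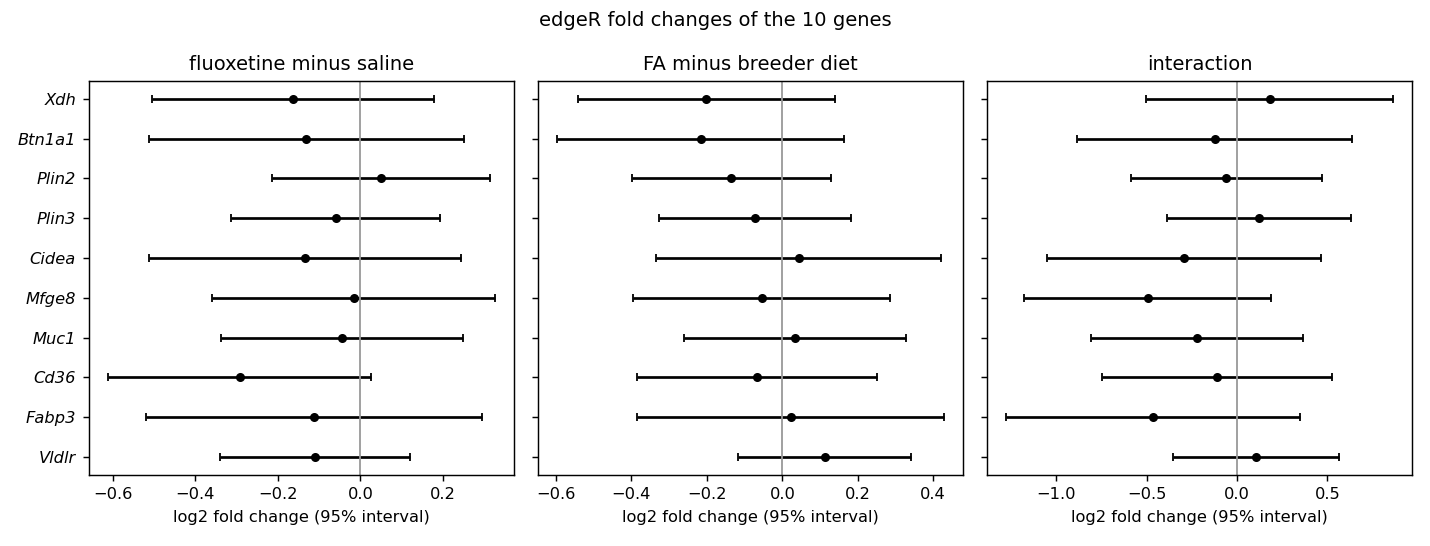
Points are edgeR log2 fold changes of the 10 genes with 95% intervals, for fluoxetine minus saline, FA minus breeder diet and the interaction, each panel on its own scale. Every interval includes 0, and Cd36 under fluoxetine, at -0.29, reaches least far above it.

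For the diet, FA against breeder averaged over saline and fluoxetine, 0 of the 10 genes were called, and 0% of all genes tested were called in the same edgeR fit. Before adjustment, 0 of 10 reached 0.05, against 5.08% of all genes, and the likelihood ratio test and DESeq2 also gave 0 on either count. Over all 14362 genes both of these tests called 0 and, before adjustment, put 750 and 796 at or below 0.05. The envelopment genes had the values farthest below 0, with log2 fold changes of -0.22 for Btn1a1 (SE 0.187), -0.20 for Xdh (SE 0.168) and -0.13 for Plin2 (SE 0.130). Without FA diet + fluoxetine dam 3 these were -0.15, -0.13 and -0.081, and the median of the 10 genes went from -0.061 to 0.0080. Of the 16 dams on FA diet, 4 were above the breeder median of their own drug group for Xdh, 5 for Btn1a1 and 6 for Plin2. Outside this group of genes, Plin3 and Cd36 also had 5 each. Vldlr had the value farthest above 0, at 0.11 (SE 0.113), followed by Cidea at 0.043 (SE 0.186), Muc1 at 0.034 (SE 0.145) and Fabp3 at 0.022 (SE 0.200). The lowest adjusted p of the 10 by edgeR was 0.943. Groups overlapped between the diets for every member, and 0% of all genes had ranges that did not overlap in either the diet or the drug comparison.

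The interaction is the fluoxetine effect on FA diet minus that on breeder diet. It was called for 0 of the 10 genes, with 0% of all genes called, and 0 of 10 reached 0.05 before adjustment, against 3.84% of all genes. The likelihood ratio test and DESeq2 gave 0 of 10 on either count too, where over all 14362 genes both called 0 and put 587 and 639 at or below 0.05. Mfge8 had the value farthest from 0, at -0.49 on the log2 scale (SE 0.336), then Fabp3 at -0.46 (95% interval -1.27 to 0.351), Cidea at -0.29 (SE 0.372) and Muc1 at -0.22 (SE 0.289). Without FA diet + fluoxetine dam 3 these values were -0.35, -0.30, -0.13 and -0.084. The lowest adjusted p of the members by edgeR was 0.977.

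The library of FA diet + fluoxetine dam 3 held the members in unequal measure. In CPM scaled by TMM, Fabp3 read 333 there against a median of 4715 in 29 other libraries, 14.2 times lower, and Cidea read 133 against 1650, 12.4 times lower. Mfge8 was lower by 6.10 times, Btn1a1 by 5.38, Xdh by 4.81, Muc1 by 4.48, Cd36 by 3.87 and Plin2 by 2.62. Each of these 8 genes lay below all 29 other libraries. Of all genes tested, 1.19% had a lower log2 ratio to the others' median there than Fabp3, 1.49% than Cidea and 4.80% than Mfge8. For Btn1a1 that share was 6.05%, for Xdh 7.12%, for Muc1 7.82%, for Cd36 9.59% and for Plin2 15.3%. Plin3, at 20.6 CPM against a range of 13.6 to 42.6, and Vldlr, at 4.95 against 3.50 to 10.1, lay among the others.

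**Figure D3:**
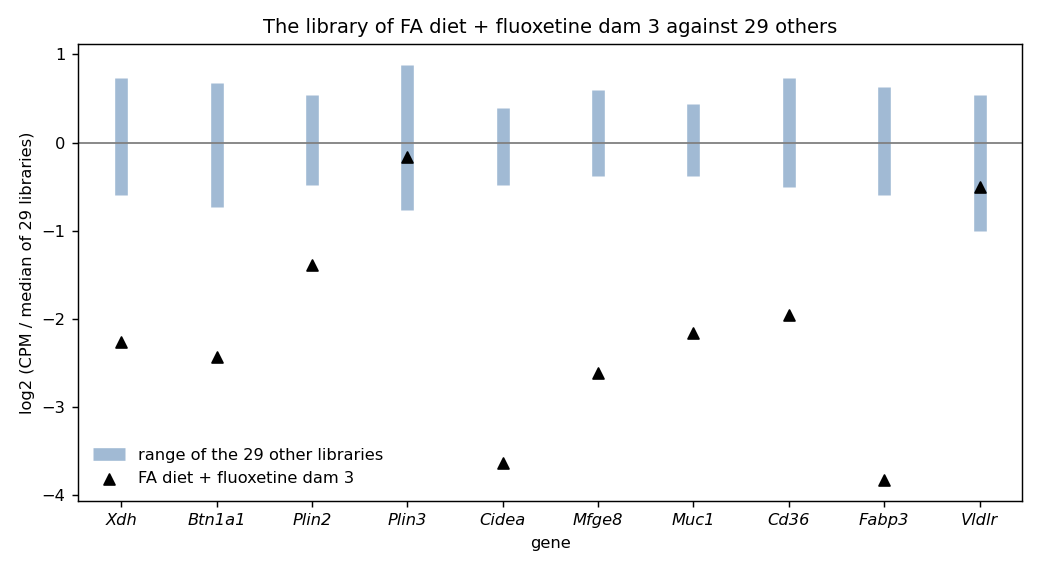
Triangles give the log2 ratio of CPM in FA diet + fluoxetine dam 3 to the median of 29 other libraries, and bars the range of those 29, leaving out breeder diet + fluoxetine dam 13. Fabp3 and Cidea lie farthest below the bars, and Plin3 and Vldlr lie inside them.

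How far each gene fell short in that library depends on the scaling. With median-of-ratios factors in place of TMM the same 8 genes were below all 29 others, Fabp3 by 14.0 times. With no factor beyond the library total, which raises the median of all tested genes there by 1.48 on the log2 scale, only Cidea (3.90 times lower), Fabp3 (4.29 times), Mfge8 (1.91 times) and Muc1 (1.44 times) were below all others. Xdh, Btn1a1 and Cd36 were then inside the range below the median, Plin2 was above the median at a ratio of 1.23, and Plin3 and Vldlr were above all others at ratios of 2.95 and 2.24. The order of the members by that ratio, from Fabp3 and Cidea at the low end to Vldlr and Plin3 at the high end, was the same under all 3 scalings. A scaling factor multiplies all genes of a library alike, so this order could hardly change and adds no separate evidence.

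Other transcripts moved in that library as well. The summed CPM of the 6 secretory markers was 42152 there and 235822 to 730374 in the other 30 libraries. The 6 fibroblast markers summed to 937 against 52.1 to 296, and the 6 macrophage markers to 165 against 31.6 to 58.0. The adipocyte sum of 288 lay inside the range of the others, 67.0 to 479, as did the myoepithelial sum of 409 (205 to 559), the endothelial sum of 53.1 (35.1 to 79.4) and that of the acute phase genes, 983 (376 to 3518). The skeletal muscle markers summed to 0.664 CPM, below the 0.911 to 5569 of the others. The adipocyte list shares Plin1 and Cidec with the droplet list used further on. None of the listed markers was at 0 over all 31 libraries, and the part of these differences in the members' levels was not tested. In breeder diet + fluoxetine dam 13 the acute phase sum was the highest of the study, 3518, and Mfge8 at 5285 CPM was above all 29 of the remaining libraries, while the other 9 members lay inside their ranges.

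Across dams, some of the members varied together. For every library, the group mean was subtracted from the log2 CPM, and the 45 pairs of members were correlated over the 31 libraries, with permutation tests of the libraries within groups. Of the 45 pairs, 18 had a Spearman correlation with a Benjamini-Hochberg adjusted p of 0.1 or below, and 11 without FA diet + fluoxetine dam 3. Btn1a1 and Cd36 gave a Spearman rho of 0.771 and a Pearson r of 0.891 (both permutation p = 1e-05, the smallest the resamples can give, adjusted p = 0.000225). Without the 2 libraries farthest from the median of Btn1a1, r was 0.751, and without dam 3 it was 0.776 with a rho of 0.759. Dams high in butyrophilin transcript for their group were thus also high in that of the transporter Cd36.

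Plin2 and Mfge8 formed another such pair, with a rho of 0.755 and an r of 0.877 (both permutation p = 1e-05, adjusted p = 0.000225). Without the 2 farthest libraries r was 0.750, and without dam 3 the rho was 0.793. Plin2 and Cd36, whose promoter stretches are printed above, gave a rho of 0.712 and an r of 0.839 (permutation p = 9e-05 and 4e-05, adjusted p = 0.00101 and 0.00045), with an r of 0.699 without the 2 farthest libraries. Mfge8 and Cd36 gave 0.658 and 0.851 (permutation p = 0.00012 and 3e-05, adjusted p = 0.00108 and 0.00045), with an r of 0.720 without the 2 farthest. The 4 genes Btn1a1, Plin2, Mfge8 and Cd36 thus covaried in each of their pairs, and without dam 3 their 6 rho values were 0.521 to 0.793. This was not particular to them, since many genes outside the set correlated as well or better. Among 14361 genes ranked by rho with Btn1a1, Cd36 was number 112, Mfge8 number 746 and Plin2 number 847, and Mfge8 was number 14 for Plin2 and 602 for Cd36. Cidea covaried with the glycoproteins, at a rho of 0.708 with Mfge8 (r = 0.896, permutation p = 4e-05 and 0.00019, adjusted p = 0.0006 and 0.0015) and 0.665 with Muc1 (r = 0.906, permutation p = 0.00074 and 0.00046, adjusted p = 0.00555 and 0.00252). These fell to 0.526 and 0.530 without dam 3, and r was 0.604 and 0.627 without the 2 farthest libraries.

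The rho of Xdh with the other members ranged from -0.038 to 0.183, and 0 of its 9 pairs passed by rho. Without dam 3 its rho ranged from -0.395 to 0.031, again with 0 of 9 passing. The lowest was with Fabp3, where r was -0.43 (adjusted p = 0.0916 for r and 0.154 for rho, permutation test). With Btn1a1, its partner in envelopment, the rho was 0.174 and r was 0.570 (permutation p = 0.360 and 0.0553, adjusted p = 0.630 and 0.113). That r fell to 0.030 without the 2 farthest libraries and to 0.0265 without dam 3 alone, so it rested on dam 3. Without a factor beyond the library total the rho of Xdh and Btn1a1 was 0.448, and that of Btn1a1 and Cd36 was 0.819. Without dam 3 on that scaling, the rho of Xdh ranged from -0.136 with Fabp3 to 0.377 with Btn1a1, and was 0.338 with Vldlr. The sign of the Xdh values without dam 3 thus depended on the scaling. Plin3 passed with Fabp3 alone, at a rho of 0.524 (r = 0.231, permutation p = 0.00213 and 0.130, adjusted p = 0.00916 and 0.193, r = 0.283 without the 2 farthest libraries), and with its relative Plin2 gave a rho of 0.148. By rho, Vldlr passed with 1 gene of 9, Cd36 (0.398), and, without dam 3, with 0. By r it passed with Btn1a1 (0.55) and Cd36 (0.52), with adjusted p of 0.00741 and 0.0099 by permutation test. Without dam 3 these r values were 0.465 and 0.417 (adjusted p = 0.063 and 0.0785, permutation test). On the scaling without a factor beyond the library total, also without dam 3, the rho was 0.554 and 0.497.

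**Figure D4:**
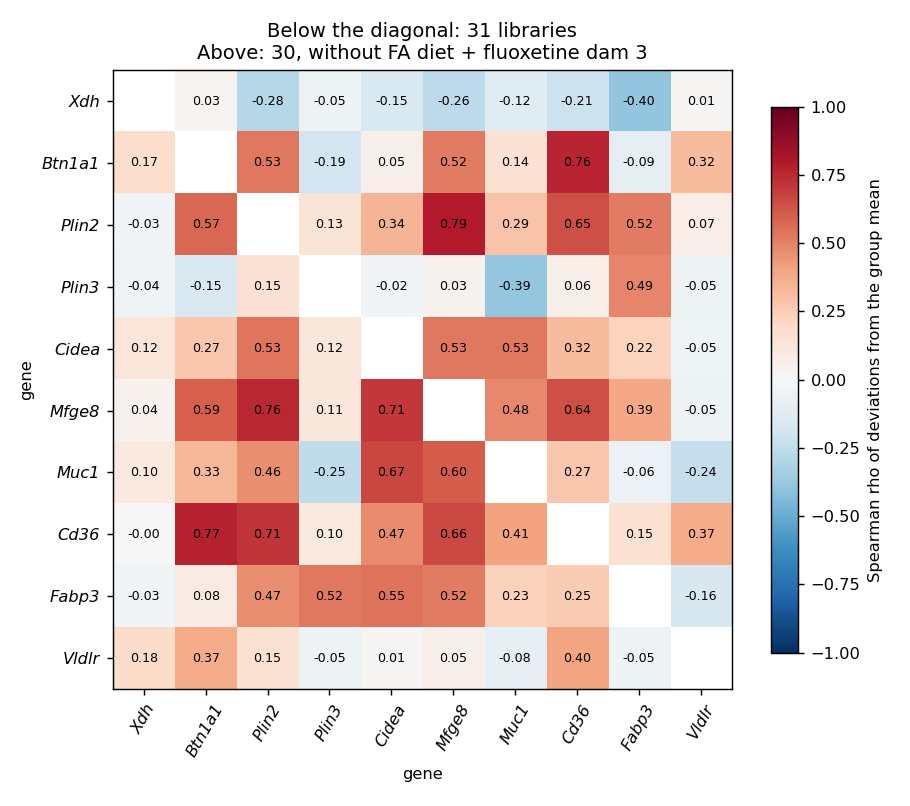
Each cell gives the Spearman rho of one pair of genes, from log2 CPM with the group mean subtracted, for all 31 libraries below the diagonal and for 30 without FA diet + fluoxetine dam 3 above it. Btn1a1, Plin2, Mfge8 and Cd36 form a block of high values. On this TMM scaling the row and column of Xdh hold values near or below 0.

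**Figure D5:**
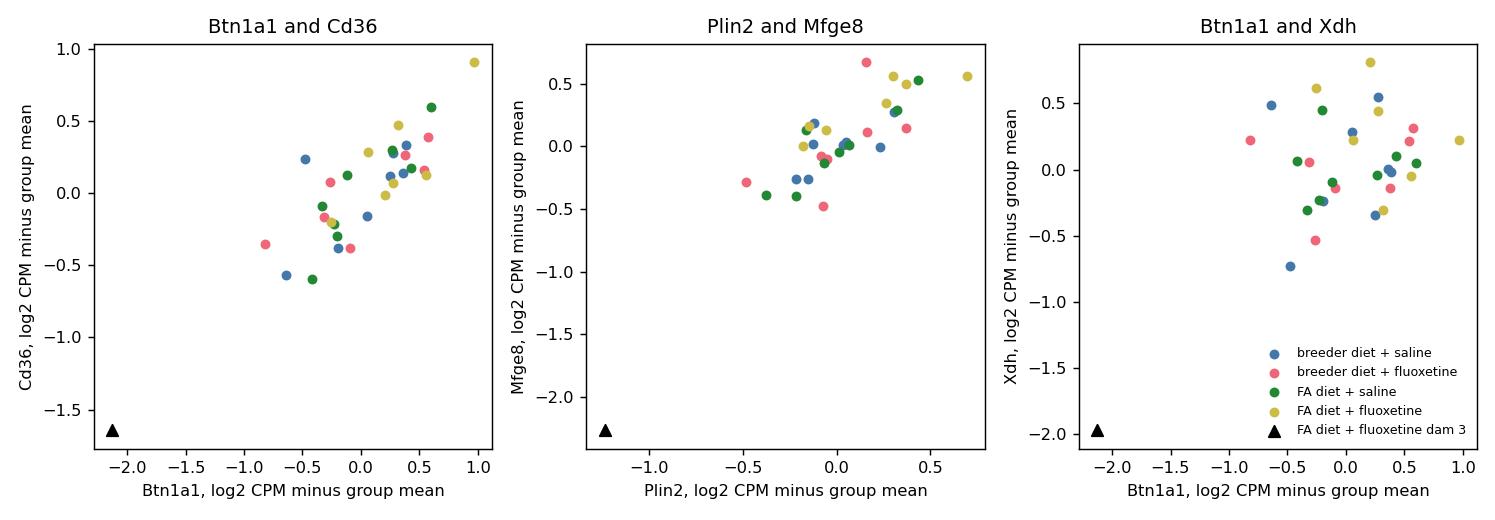
Each point is one library, as log2 CPM minus its group mean, for Btn1a1 with Cd36, Plin2 with Mfge8 and Btn1a1 with Xdh, coloured by group, with FA diet + fluoxetine dam 3 as a triangle. The first 2 panels rise together with or without the triangle (rho 0.771 and 0.755), and in the third the other 30 points show a rho of 0.031.

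Without dam 3, all 10 genes spread less within groups than the median gene. The within-group SD of log2 CPM was 0.230 for Cidea, 0.234 for Muc1, 0.265 for Plin2, 0.283 for Mfge8 and 0.287 for Fabp3, beside a median of 0.433 over all genes tested. That median covers genes of all levels, scarce ones included, and was not matched to the levels of the members. Btn1a1, at 0.421, was the most variable of the members, and Xdh (0.345) and Cd36 (0.345) lay between. With dam 3 included, the median over all genes was 0.477, and this no longer held for most members. Fabp3 (0.731, the largest), Cidea (0.692), Btn1a1 (0.602), Mfge8 (0.543), Xdh (0.528) and Cd36 (0.479) then spread more than the median gene. Muc1 (0.466), Plin2 (0.364), Plin3 (0.358) and Vldlr (0.306, the smallest) spread less.

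The genes whose deviations ran most like those of each member, among 14361 others over the 31 libraries, were as follows. For Xdh they were Acacb (rho 0.888), an acetyl-CoA carboxylase, and Tpcn2 (0.865), and for Btn1a1 they were Rab18 (0.912), a small GTPase found on lipid droplets, and Cmtm6 (0.896). Plin2 ran with Ctsb (0.814) and Canx (0.804), Mfge8 with Clu (0.789) and Plin2 (0.755), and Cidea with Rabac1 (0.859) and the casein gene Csn1s2b (0.848). Cd36 ran with Steep1 (0.891) and Rpl15 (0.891), Muc1 with Tmed3 (0.818) and Rps10-ps2 (0.816), and Plin3 with Lifr (0.721) and Lipa (0.717). Fabp3 ran with its pseudogene Fabp3-ps1 (0.755), which can share its reads, and with Slc35c2 (0.754), whose rho was 0.454 without dam 3. Vldlr ran with Kctd21 (0.754) and Trim23 (0.692). Mfge8 alone had another member among its 2 nearest genes over the 31 libraries. Without FA diet + fluoxetine dam 3, Plin2 was number 4 for Mfge8 and Clu number 14. Csn1s2b was then number 11 for Cidea, and Trim23 number 18 for Vldlr.

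Ratios of counts within a library, which do not depend on scaling, were compared between fluoxetine and saline dams within diets for 4 pairs by permutation tests. The log2 ratio of Plin2 to Btn1a1 had medians of -0.20 and -0.067 with saline on breeder and FA diet, and 0.026 and 0.26 with fluoxetine. It was higher with fluoxetine by 0.23 (two-sided permutation p = 0.0995, adjusted over 4 ratios 0.398), with overlapping groups. FA diet + fluoxetine dam 3 had the highest value of this ratio, 1.06. Without that dam the difference was 0.17, the lowest when leaving out 1 library. The ratio of Cd36 to Btn1a1 differed by -0.12 (permutation p = 0.255, adjusted 0.511). Xdh to Btn1a1 differed by -0.0035 (permutation p = 0.986, adjusted 0.986) and Plin2 to Plin3 by 0.044 (permutation p = 0.800, adjusted 0.986). The ratio of Xdh to Btn1a1 varied from -0.24 to 1.63 on the log2 scale over the 31 libraries, and that of Plin2 to Plin3 from 3.96 to 6.05.

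Of 64 further genes of these pathways, 55 passed the filter, and edgeR called 0 of 55 in each of the 3 comparisons. Before adjustment, 6 of 55 reached 0.05 for fluoxetine, 2 for FA and 2 for the interaction, beside 9.92%, 5.08% and 3.84% of all genes. For fluoxetine the 5 above 0 included the lipases Mgll (log2 fold change 0.54, SE 0.222) and Lipe (0.37, SE 0.154), the fatty acid binding protein Fabp4 (0.42, SE 0.162) and the fatty acid transporter Slc27a1 (0.38, SE 0.168). Without dam 3 these were 0.24, 0.24, 0.23 and 0.27. Medians of Fabp4 were 163 and 181 CPM with saline and 208 and 221 CPM with fluoxetine, on breeder and FA diet. The globule membrane genes Cd59a (0.52, SE 0.179) and Btn2a2 (-0.59, SE 0.231) made up the 6, with 0.383 the lowest adjusted p of these genes by edgeR. These counts depended on FA diet + fluoxetine dam 3. Without it, 3 of 54 genes reached 0.05 before adjustment for fluoxetine, 7 for FA and 1 for the interaction. Over all genes the shares were then 9.2%, 6.99% and 3.48%. The lipolysis list, with Mgll and Lipe, then had 0 for fluoxetine.

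By list, for fluoxetine, the droplet proteins had 6 of 12 values above 0 (median log2 fold change -0.00030), lipolysis 4 of 6 (0.013), fatty acid binding and uptake 7 of 13 (0.013), lipoprotein lipolysis and uptake 6 of 10 (0.088) and globule membrane proteins 7 of 14 (-0.0021), beside a median of 0.019 over all genes. The first list had Spast (-0.22, SE 0.128) and Plin5 (1.15, SE 0.720, on medians under 0.5 CPM) as its genes of smallest p, and the lipoprotein list Apoe (0.35, SE 0.201) and Scarb1 (-0.18, SE 0.138). Without FA diet + fluoxetine dam 3 Apoe stood at 0.055. For the diet, caveolin gene Cav1 (0.33, SE 0.0946, adjusted p = 0.933 by edgeR), Fabp5 (0.29, SE 0.118) and Anxa2 (0.50, SE 0.251) had the smallest p of these lists, and without that dam Anxa2 stood at 0.11. For the interaction these were Muc4 (5.16, SE 1.57), at group medians of 0.0968 to 0.404 CPM, the lipoprotein lipase inhibitor Angptl4 (1.81, SE 0.772) and the lipase activator Abhd5 (-0.53, SE 0.274). Muc4 fell under the filter without FA diet + fluoxetine dam 3.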

How the data were processed

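Poly-A RNA of mammary gland was sequenced as paired reads, 1 library a dam. Per the labels and the study's methods, reads were checked with FastQC 0.11.7 and trimmed with Trim Galore 0.4.4, then HISAT2 placed them on GRCm39 and HTSeq assigned them to genes. The authors deposited the resulting whole-number counts per gene, not normalized. The annotation release and strand setting are not given in the sources used here. Milk protein transcripts take most of the depth, so the scarcest member, Vldlr, carries a counting error of 8.11% at its median count, while that of the most abundant, Fabp3, is 0.322%.

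Groups follow the labels, with 7 and 8 fluoxetine dams on breeder and FA diet, where the study's methods text has these numbers the other way round. The 10 genes and all gene lists were chosen with earlier results of these data known. In R 4.3.3, edgeR 4.0.16 was run with filterByExpr by group (14362 genes kept, 41017 removed), TMM factors, 1 mean per group, a robust quasi-likelihood fit over all 31 libraries (common biological coefficient of variation 0.412) and Benjamini-Hochberg adjustment over all genes tested, with calls at a false discovery rate of 10%. Fold changes, intervals and adjusted p-values come from that fit, after a test on simulated data.

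Correlations used log2 CPM (prior count 2) minus the group mean, with 100000 permutations within groups in scipy 1.17.1. The text names the 10 members, the pathway genes of smallest p (2 a list for fluoxetine, 3 over all lists for FA and for the interaction) and the 2 genes most correlated with each member. Coordinates and exon lengths are from GENCODE vM39, which lacks 667 of the 55379 genes. No libraries of a group agreed within sampling noise (lowest chi-square per degree of freedom 15.8). Alternatives were the likelihood ratio test, DESeq2 1.42.0, no filter, RLE factors, TMM without the 20 most abundant genes, the animal number as block and leaving out each library. Leaving out the 2 libraries of lowest milk transcript share, leaving dam 3 out of correlations and medians, and other scalings of dam 3 and of the correlations were chosen after seeing the data.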

Additional observations from a re-analysis of the deposited data

Results flagged for a closer look

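Of 56 groups of values tested for a lone extreme dam, 11 had one, where chance gives about 1 in 20, or 2.8 of 56. In 8 of them it was FA diet + fluoxetine dam 3, the lowest of its group at 246 CPM for Xdh, 155 for Btn1a1, 322 for Plin2, 133 for Cidea, 508 for Mfge8, 77.9 for Muc1, 107 for Cd36 and 333 for Fabp3. They come from 1 library and are not 8 separate events.

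Fabp3 was lowest in FA diet + saline dam 5, at 3837 CPM, in a group whose median was 5355. Vldlr was lowest in breeder diet + fluoxetine dam 9, at 3.50 CPM. The log2 ratio of Cd36 to Btn1a1 counts was highest in breeder diet + saline dam 3, at -0.34, where the group's median was -1.14.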

How the results depend on the processing

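None of the 10 genes was called for fluoxetine, FA or the interaction under any alternative run, leave-one-out fits included. Of 210 member values under 7 alternatives, 198 kept their direction, and the lowest adjusted p was 0.453 (0.289 over 930 leave-one-out values, for Cd36 without FA diet + fluoxetine dam 2). The 12 that changed sign started between -0.20 (Xdh under FA) and 0.12 (Plin3 in the interaction), and the cause was not tested. The genes called for fluoxetine over the whole table went from 3 to 58 with the likelihood ratio test (49 up, 9 down), 70 with DESeq2 (53 up, 17 down), 1 without the filter, 0 with the animal number as replicate block, and 0 to 19 leaving out 1 library (0 without breeder diet + fluoxetine dam 8, 19 without breeder diet + saline dam 4).

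The labels do not say whether the animal numbers pair the dams, and a pairing was not tested. Deviations of same-numbered libraries correlated at a median of 0.0905 (28 pairs, -0.333 to 0.583), 13 of them above 0.1, and 5 libraries matched their own number best. Those of other-numbered libraries correlated at a median of -0.021 (332 pairs, -0.518 to 0.532), 97 of them above 0.1. With the block, signs changed for Plin3 under fluoxetine (0.025), Xdh (0.00031), Mfge8 (0.014) and Fabp3 (-0.10) under FA, and Plin3 (-0.014) and Cd36 (0.040) in the interaction, and Xdh was the only member at or below 0.05 before adjustment, for fluoxetine (log2 fold change -0.50, edgeR adjusted p = 0.694). Without both libraries of lowest milk transcript share, signs changed for Muc1 under fluoxetine (0.039), Mfge8 (0.084) and Cd36 (0.015) under FA, and Btn1a1 (0.086), Plin2 (0.083) and Cd36 (0.072) in the interaction. The fluoxetine minus saline difference in the log2 ratio of Xdh to Btn1a1, -0.0035 by means, was 0.014 by medians and 0.028 without those libraries.

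Leaving out 1 library, log2 fold changes that crossed 0 ranged, for fluoxetine, from -0.0060 to 0.10 for Plin2, -0.11 to 0.017 for Plin3, -0.086 to 0.053 for Mfge8 and -0.081 to 0.020 for Muc1. For FA they ranged from -0.12 to 0.0034 for Plin3, -0.097 to 0.019 for Mfge8 and -0.064 to 0.11 for Fabp3. For the interaction they ranged from -0.28 to 0.019 for Btn1a1, -0.17 to 0.048 for Plin2, -0.041 to 0.22 for Plin3 and -0.26 to 0.016 for Cd36. The fluoxetine minus saline difference in the log2 ratio ranged from -0.091 to 0.077 for Xdh to Btn1a1 and from -0.023 to 0.12 for Plin2 to Plin3. Depth limits Vldlr (52 to 283 counts) and Plin3 (234 to 1181), while the other 8 members held at least 4457 counts in every library.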
